A study of Mus musculus with 10 samples.

Results

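The histone variant H2A.Z system was followed here through 8 genes, *H2az1* and *H2az2*, which encode the variant, and *Vps72*, *Srcap*, *Znhit1*, *Ep400*, *Anp32e* and *Ino80*, which encode proteins that place it into chromatin or take it out. They were chosen by gene symbol, 8 of the 23080 genes in the count table, and all 8 passed the expression filter that kept 16267 genes. *H2az2* headed the list because it had already been seen to differ between the groups in these same libraries, so its values are given as a description with no test. The other 7 were chosen for what their proteins do.

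Bulk RNA came from the anterior fontanelle (AF) of E18.5 mouse embryos, a piece of skull roof that held bone edges as well as the soft tissue between them, with the overlying skin and the brain removed. The 5 control libraries are labelled WT, and the 5 mutant libraries carry *Wnt1-Cre* with both *Fgfr2* alleles floxed (*Wnt1-Cre; Fgfr2fl/fl*). *Wnt1-Cre* is active in the dorsal neural tube and midbrain and in the neural crest that leaves it, whose descendants carry the recombined allele, so blood, endothelium and mesoderm-derived cells in the same tissue keep an intact *Fgfr2*. The labels do not say whether a control embryo carried Cre or floxed alleles. Bulk RNA-seq sums all cells of the tissue, and fewer cells of a type cannot be told apart from less RNA per cell. Each library held 20774667 to 28515434 estimated counts. *Fgfr2*, the targeted gene, was at 176 to 235 CPM (counts scaled to library size) in controls and 273 to 357 CPM in mutants. This total went against the genotype, although a count over the whole gene does not single out the deleted part, and the groups are therefore called control-labelled and mutant-labelled. Markers of bone and of fontanelle connective tissue were detected in all libraries, at summed levels of 54100 to 78400 CPM for 10 osteoblast genes and 148 to 278 CPM for *Scx*, *Tnmd*, *Mkx* and *Matn4*. The osteoblast sum, in which the most abundant genes weigh most, was 66100 to 77700 CPM in the control-labelled group and 54100 to 78400 CPM in the mutant-labelled group. All 10 osteoblast genes had a log2 fold change below 0 (median −0.36), with 7 at an unadjusted p-value under 0.05 in edgeR (7.49% of all genes), 1 without overlap between the groups (1.48% of all genes) and an adjusted p-value under 0.05 for none with edgeR or limma voom and 4 with DESeq2 (0.597% of the genes it tested). The connective tissue sum was 148 to 179 CPM in the control-labelled group and 199 to 278 CPM in the mutant-labelled group, and all 4 genes had a log2 fold change above 0 (median 0.47), all 4 at an unadjusted p-value under 0.05 and 2 without overlap between the groups, none past the adjusted threshold with edgeR or limma voom and 2 with DESeq2.

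H2A.Z replaces the ordinary histone H2A in a subset of nucleosomes, above all in those beside the start sites of genes and at enhancers. In mammals it comes from separate genes for nearly identical proteins, H2A.Z.1 (*H2az1*, formerly *H2afz*) and H2A.Z.2 (*H2az2*, formerly *H2afv*). The ATPase SRCAP, with ZNHIT1 and the H2A.Z-binding subunit VPS72, and the related p400 complex exchange H2A for H2A.Z. ANP32E is a chaperone that removes H2A.Z, and the INO80 remodeller has been linked to its removal as well. *H2az2* may have a further link to this cross, since the registered name of the original *Wnt1-Cre* line places the transgene in *H2az2*. The methods name the stock of that line but cite a description of a second line, whose name places its transgene in *E2f1*, so which of them was used is uncertain. Mutant-labelled embryos carry a Cre transgene and were bred to lose *Fgfr2* in the neural crest, and in this design the effects of both on *H2az2* cannot be told apart.

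The transcripts of both H2A.Z genes are shown first, because a read of 50 bases must separate them for the counts to be read gene by gene. The first 90 coding bases from GENCODE M21 (GRCm38) are printed 5′ to 3′, with capitals at bases that differ between the genes.
*H2az1*: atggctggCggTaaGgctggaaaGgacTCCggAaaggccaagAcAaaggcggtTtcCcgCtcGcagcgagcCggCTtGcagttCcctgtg
*H2az2*: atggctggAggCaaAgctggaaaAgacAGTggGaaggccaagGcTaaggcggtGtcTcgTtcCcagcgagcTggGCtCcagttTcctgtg
The printed stretches differ at 19 bases. Over the whole coding sequence of 387 bases there were 81 differences, an identity of 79.1%, and 70 of them fell at the third position of a codon. The longest identical run was 14 bases. No 50-base stretch of the longest coding transcript of *H2az2* occurred in any other annotated gene, *H2az1* included, so reads of the paralogs were not interchangeable. For *H2az1*, 69.6% of the 50-base stretches occurred on either strand of a transcript of another gene, mainly *Tmcc1* (60.8%) and *Gm8203*.

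The bases just before each start site are shown because the paralogs code for nearly the same protein from separate promoters. These are the 250 bases upstream of the RefSeq start (GRCm38.p6), at chr3:137864237-137864486 on the plus strand for *H2az1* and chr11:6444444-6444693 on the minus strand for *H2az2*, with capitals at the CCAAT box or its complement ATTGG.
*H2az1*: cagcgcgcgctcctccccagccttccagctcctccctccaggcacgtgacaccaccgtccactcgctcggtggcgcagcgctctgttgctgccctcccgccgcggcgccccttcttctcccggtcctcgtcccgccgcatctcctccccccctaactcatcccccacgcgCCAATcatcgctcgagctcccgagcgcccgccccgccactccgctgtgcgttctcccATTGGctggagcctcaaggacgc
*H2az2*: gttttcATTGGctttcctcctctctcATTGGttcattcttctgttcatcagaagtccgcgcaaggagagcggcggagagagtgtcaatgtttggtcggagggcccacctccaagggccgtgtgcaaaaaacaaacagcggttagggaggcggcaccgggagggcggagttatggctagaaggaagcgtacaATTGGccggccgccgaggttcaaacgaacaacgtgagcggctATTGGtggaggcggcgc
The *H2az1* window held 2 such boxes and 28 CpG dinucleotides, at 71.2% G and C, and the *H2az2* window held 4 boxes and 19 CpG, at 57.2%. Of 32851 promoter windows of this length, 33.8% held at least 1 box and 2.79% held 3 or more. Of the other members with a window, *Anp32e* also held 4 boxes, *Ino80* 1, and *Srcap*, *Znhit1* and *Ep400* 0. A match is a description of the letters and not a bound site.

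*H2az2* was lower in all 5 mutant-labelled libraries than in any control-labelled library. The gene lies on the minus strand of chromosome 11 (6427229 to 6444443, GRCm38). In control-labelled replicates 1 to 5 it was at 25.3, 27.7, 26.7, 29.8 and 27.7 CPM, and in mutant-labelled replicates 1 to 5 at 12.9, 14.1, 14.6, 14.9 and 12.7 CPM. The groups were separated by a wide gap and each was narrow, with a coefficient of variation of 5.98% and 7.06%. Means of 27.4 ± 1.64 and 13.8 ± 0.9746 CPM (SD, n = 5 each) stood in a ratio of 0.504. Set against the control-labelled mean, single mutant-labelled libraries lay between 0.464 and 0.542. The fitted log2 fold change was −0.99 (SE 0.066). Between 277 and 807 reads per library were assigned to it. The gene shares no exon bases with another annotated gene. As a background, 0.0184% of all genes tested passed an adjusted p-value of 0.05 with edgeR, and 0.701% were lower without overlap between the groups. The 0.00615% that passed in the lower direction was 1 gene, *H2az2* itself, so that share is no outside reference. *H2az2* entered the list for this same difference, so its place among those genes is not a further result. The osteoblast markers given above lay in the same direction as *H2az2* in these libraries and the connective tissue markers in the other, and the part of either in the *H2az2* values was not tested.

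*H2az1*, the more abundant paralog, was not shown to differ beyond the spread between libraries. It lies on the plus strand of chromosome 3 (137864487 to 137866922). In control-labelled replicates 1 to 5 it was at 66, 76, 72.2, 66.7 and 60.5 CPM, and in mutant-labelled replicates at 59.6, 78.5, 74.3, 64.4 and 78.1 CPM. Each group covered nearly the same range, and the lowest and the highest library were both mutant-labelled. The mean was 68.3 ± 5.99 and 71.0 ± 8.51 CPM (SD, n = 5 each), log2 fold change 0.06 ± 0.088 (SE of the fit, adjusted p = 0.921 with edgeR, exact permutation p = 0.603, two-sided). The 95% interval ran from 0.909 to 1.19 as a fold, so a change as large as that of *H2az2* in either direction lay outside it. With the counts of *Gm8203* and *Tmcc1*, which share sequence with it, added to those of *H2az1*, the log2 fold change was 0.04 ± 0.060 (SE of the fit, adjusted p = 0.906 with edgeR).

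*H2az1* has been tied to dividing cells, so proliferation genes were read beside it. A list of 12 such genes (*Mki67*, *Top2a*, *Pcna* and others) summed to between 376 and 453 CPM in the control-labelled group and between 356 and 474 CPM in the mutant-labelled group, and its median log2 fold change was 0.032. None of the 12 passed an adjusted p-value of 0.05 in edgeR's, DESeq2's or limma's test, and 1 was at an unadjusted p-value under 0.05 in each, where edgeR placed 7.49% of all genes.

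**Figure D1:**
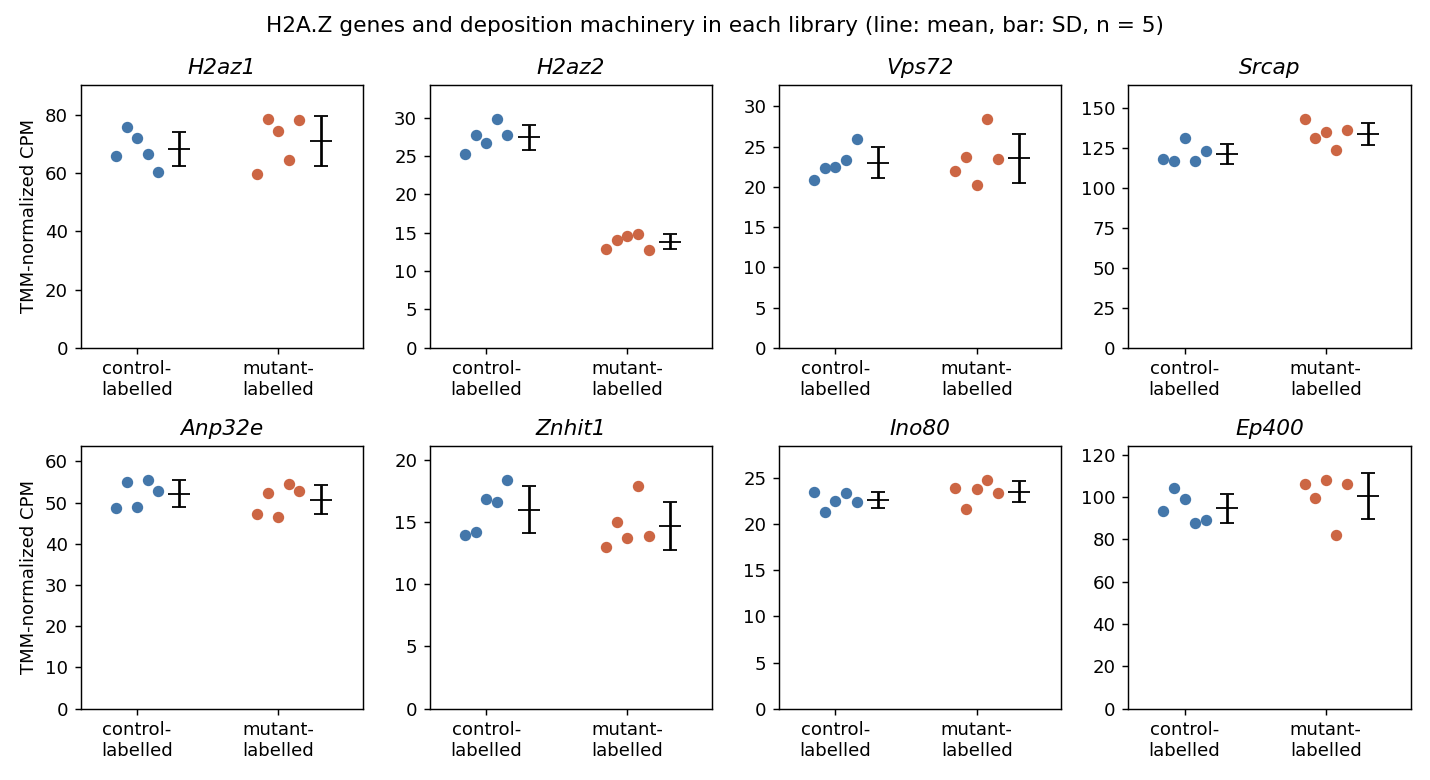
TMM-normalized CPM of the 8 genes in each library (points), from 0, with the group mean (line) and SD (bar), n = 5 per group. *H2az2* separates the groups, at 25.3 to 29.8 CPM in the control-labelled group and 12.7 to 14.9 CPM in the mutant-labelled group, while the groups overlap for each of the other genes.

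The summed H2A.Z transcripts differed by less than *H2az2*, the less abundant paralog. Per kilobase of the longest coding transcript, *H2az1* was at 63.9 ± 5.60 and *H2az2* at 16.8 ± 1.01 CPM per kb in control-labelled libraries (SD, n = 5). In mutant-labelled libraries these levels were 66.4 ± 7.96 and 8.46 ± 0.597 CPM per kb. The part of *H2az2* in the sum was 19.3% to 23.1% in the control-labelled group and 9.64% to 13.1% in the mutant-labelled group, with no overlap. The sum of both genes was 80.7 ± 5.64 and 74.9 ± 7.99 CPM per kb, and the groups overlapped, at 73.6 to 88.0 and 63.7 to 82.0 CPM per kb. As plain counts, *H2az2* made up 28.7% ± 2.25 of the reads of both genes in the control-labelled group and 16.4% ± 1.90 in the mutant-labelled group. These shares contain *H2az2* and carry no test of their own.

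**Figure D2:**
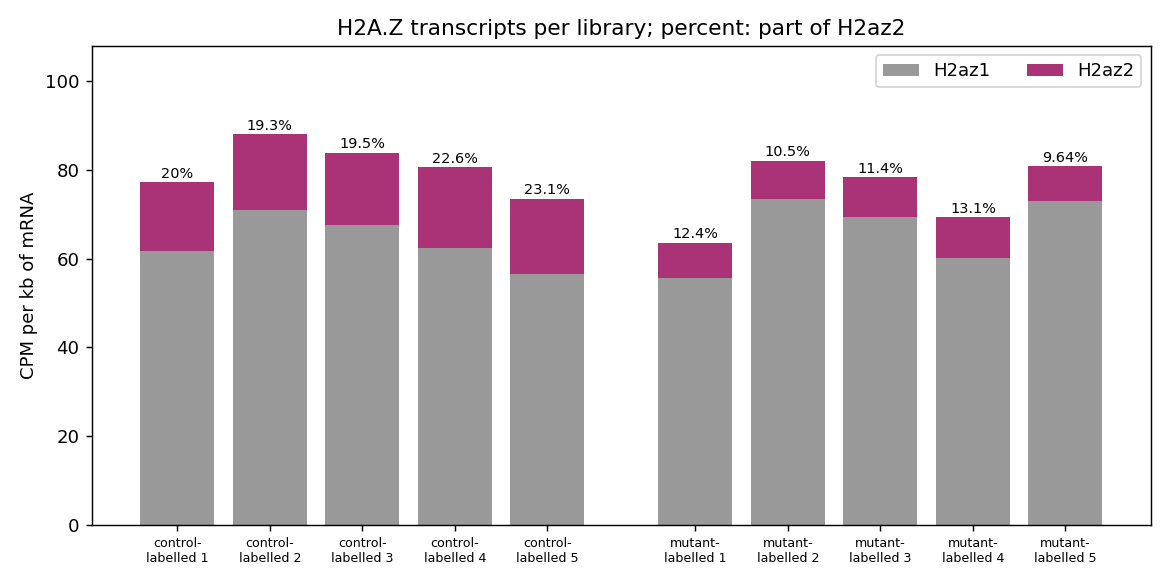
Stacked CPM per kb of mRNA of *H2az1* (grey) and *H2az2* (purple) in each library, with the percent of the sum that is *H2az2* above each bar. The grey parts vary alike in both groups, while the purple parts give 19.3% to 23.1% in the control-labelled group and 9.64% to 13.1% in the mutant-labelled group.

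The genes that handle H2A.Z overlapped between the groups one by one. Of the 7 members other than *H2az2*, none passed an adjusted p-value of 0.05 in edgeR's quasi-likelihood test, DESeq2's Wald test or limma voom, and 1, *Srcap*, was at an unadjusted p-value under 0.05 in each, where edgeR placed 7.49% of all genes, with 3.68% of all genes higher and 3.82% lower at that level. In none of the 7 were the groups without overlap, against 1.48% of all genes.

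*Srcap*, the ATPase that gives the SRCAP complex its name, had the lowest p-value of these 7 genes and a higher mean in the mutant-labelled libraries, which did not pass the adjusted threshold. It lies on chromosome 7 (127511983 to 127561219, plus strand). In control-labelled replicates 1 to 5 it was at 118, 117, 131, 117 and 123 CPM, and in mutant-labelled replicates at 143, 131, 135, 124 and 136 CPM. Control-labelled replicate 3 reached into the range of the mutant-labelled libraries. The mean was 121 ± 6.12 and 134 ± 7.15 CPM (SD, n = 5 each), log2 fold change 0.14 ± 0.054 (SE of the fit, adjusted p = 0.631 with edgeR, two-sided exact permutation test, p = 0.0238). *Gm42715*, an annotated gene on the same strand, shares 90.4% of the 50-base stretches of the *Srcap* transcript, so the counting had to divide reads between the genes. *Gm42715* was at 16.5, 17.1, 15.9, 12.5 and 13.4 CPM in control-labelled and at 8.08, 17.5, 10.5, 10.8 and 12 CPM in mutant-labelled replicates, the opposite direction by their means. With both counts added, the log2 fold change was 0.09 ± 0.052 (SE of the fit, adjusted p = 0.701 with edgeR, exact permutation test, p = 0.0714).

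*Vps72* and *Znhit1* encode the small subunits that work with SRCAP. *Vps72*, the H2A.Z-binding subunit (chromosome 3, 95111022 to 95123051), was at 20.9 to 26.0 CPM in the control-labelled group and 20.2 to 28.4 CPM in the mutant-labelled group, log2 fold change 0.04 ± 0.090 (SE of the fit, adjusted p = 0.952 with edgeR). Mutant-labelled replicate 4 was the highest, and without it the log2 fold change was −0.03. *Znhit1* (chromosome 5, 136982164 to 136988021) was at 14.0 to 18.4 CPM and 13 to 17.9 CPM, log2 fold change −0.12 ± 0.10 (SE of the fit, adjusted p = 0.817 with edgeR). Leaving out control-labelled replicate 5 moved its log2 fold change to −0.06, and leaving out mutant-labelled replicate 4 moved it to −0.20. Its exons share 28.4% of their bases with *Plod3* on the opposite strand, and the counting is not stated to use strand.

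*Ep400*, the ATPase of the other complex that deposits H2A.Z (chromosome 5, 110664373 to 110770717), was at 87.7 to 104 CPM in the control-labelled group and 81.8 to 108.3 CPM in the mutant-labelled group. Its mean was 94.5 ± 6.72 and 100.4 ± 10.9 CPM (SD, n = 5 each), log2 fold change 0.09 ± 0.081 (SE of the fit, adjusted p = 0.839 with edgeR). Apart from replicate 4, the mutant-labelled libraries lay close together, at 99.6 to 108.3 CPM, and replicate 4 lay below all others. Without replicate 4 the log2 fold change was 0.16 ± 0.060 (SE of the fit, adjusted p = 0.589 with edgeR).

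Among the genes for removal, *Anp32e* (chromosome 3, 95929246 to 95947390) was at 52.2 ± 3.23 and 50.7 ± 3.57 CPM (SD, n = 5 each), log2 fold change −0.04 ± 0.062 (SE of the fit, adjusted p = 0.912 with edgeR). Its 95% interval was 0.884 to 1.07 as a fold, and with single libraries left out the log2 fold change ran from −0.061 to −0.0039, the latter without mutant-labelled replicate 3. *Ino80* (chromosome 2, 119373042 to 119477687) had the smallest spread of the 8 genes, with a coefficient of variation of 3.98% and 4.72%. It was at 22.7 ± 0.902 and 23.5 ± 1.11 CPM, log2 fold change 0.05 ± 0.052 (SE of the fit, adjusted p = 0.850 with edgeR) with an interval of 0.959 to 1.12 as a fold, and at 0.09 without mutant-labelled replicate 2. Neither gene shares exon bases or 50-base stretches with another annotated gene.

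Per kilobase of transcript, the control-labelled means of the 8 genes ran from 63.9 CPM per kb for *H2az1* through 16.8 for *H2az2*, 15.9 for *Anp32e*, 15.8 for *Vps72*, 13.3 for *Znhit1*, 11.4 for *Srcap* and 8.84 for *Ep400* to 3.57 for *Ino80*. *H2az2*, *Anp32e* and *Vps72* lay within their SDs of each other, at 1.01, 0.986 and 1.30 CPM per kb. In mutant-labelled libraries *H2az2*, at 8.46 CPM per kb, stood below all of these but *Ino80*, at 3.70, and within an SD of *Ep400*, at 9.40 ± 1.03. Levels of *H2az1* and *Srcap* carry the uncertainty of shared sequence given above.

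The remaining subunits of the machinery were read as lists. The SRCAP complex list held 9 genes, the TIP60-p400 list 17, the INO80 list 15, the chaperones and readers 7 and other histone variant genes 8, with subunits such as *Ruvbl1*, *Ruvbl2* and *Actl6a* counted in several. Their median log2 fold changes were −0.0020, 0.032, −0.013, 0.0028 and 0.0067, beside 7.3e-04 over all genes tested. In the 10 fits that left out 1 library each, the medians ran from −0.033 to 0.044 for SRCAP, 0.0036 to 0.046 for TIP60-p400, −0.026 to 0.021 for INO80, −0.0041 to 0.030 for chaperones and readers and −0.014 to 0.034 for the histone variants, so no list but TIP60-p400 kept the sign of its median, and that list was at −0.0030 when libraries were scaled by size alone. Apart from the members they held 41 different genes, all tested, of which 20 were lower and 21 higher (49.7% of all genes were lower), from −0.21 to 0.14. None of the 41 passed an adjusted p-value of 0.05 in edgeR's, DESeq2's or limma voom's test, and in none did the groups not overlap. At an unadjusted p-value under 0.05 there was 1 with edgeR, 1 with DESeq2 and 0 with limma voom, below the 7.49% of all genes with edgeR.

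With edgeR that gene was *H1f0*, which encodes the linker histone H1.0. It was at 210.2 ± 23.2 CPM in the control-labelled group and 182 ± 20.7 CPM in the mutant-labelled group (SD, n = 5 each), log2 fold change −0.21 ± 0.094 (SE of the fit, adjusted p = 0.659 with edgeR). In the TIP60-p400 list the highest value was that of *Trrap*, the large scaffold of histone acetyltransferase complexes, at 117 ± 11.4 and 129 ± 15.2 CPM, log2 fold change 0.14 (SE 0.092). The lowest there was *Mrgbp*, at −0.06 (SE 0.11). The INO80 list ran from *Uchl5*, a deubiquitinase, at −0.12 (SE 0.11) to *Ino80d* at 0.10 (SE 0.095). Among chaperones and readers, *Pwwp2a*, which encodes a reader of H2A.Z nucleosomes, was highest at 0.10 (SE 0.094), and *Anp32e* was lowest. *Macroh2a2*, another H2A variant gene, was at 0.07 (SE 0.086). The middle 50% of the 41 genes lay between −0.039 and 0.037, and that of all genes tested between −0.086 and 0.096.

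**Figure D3:**
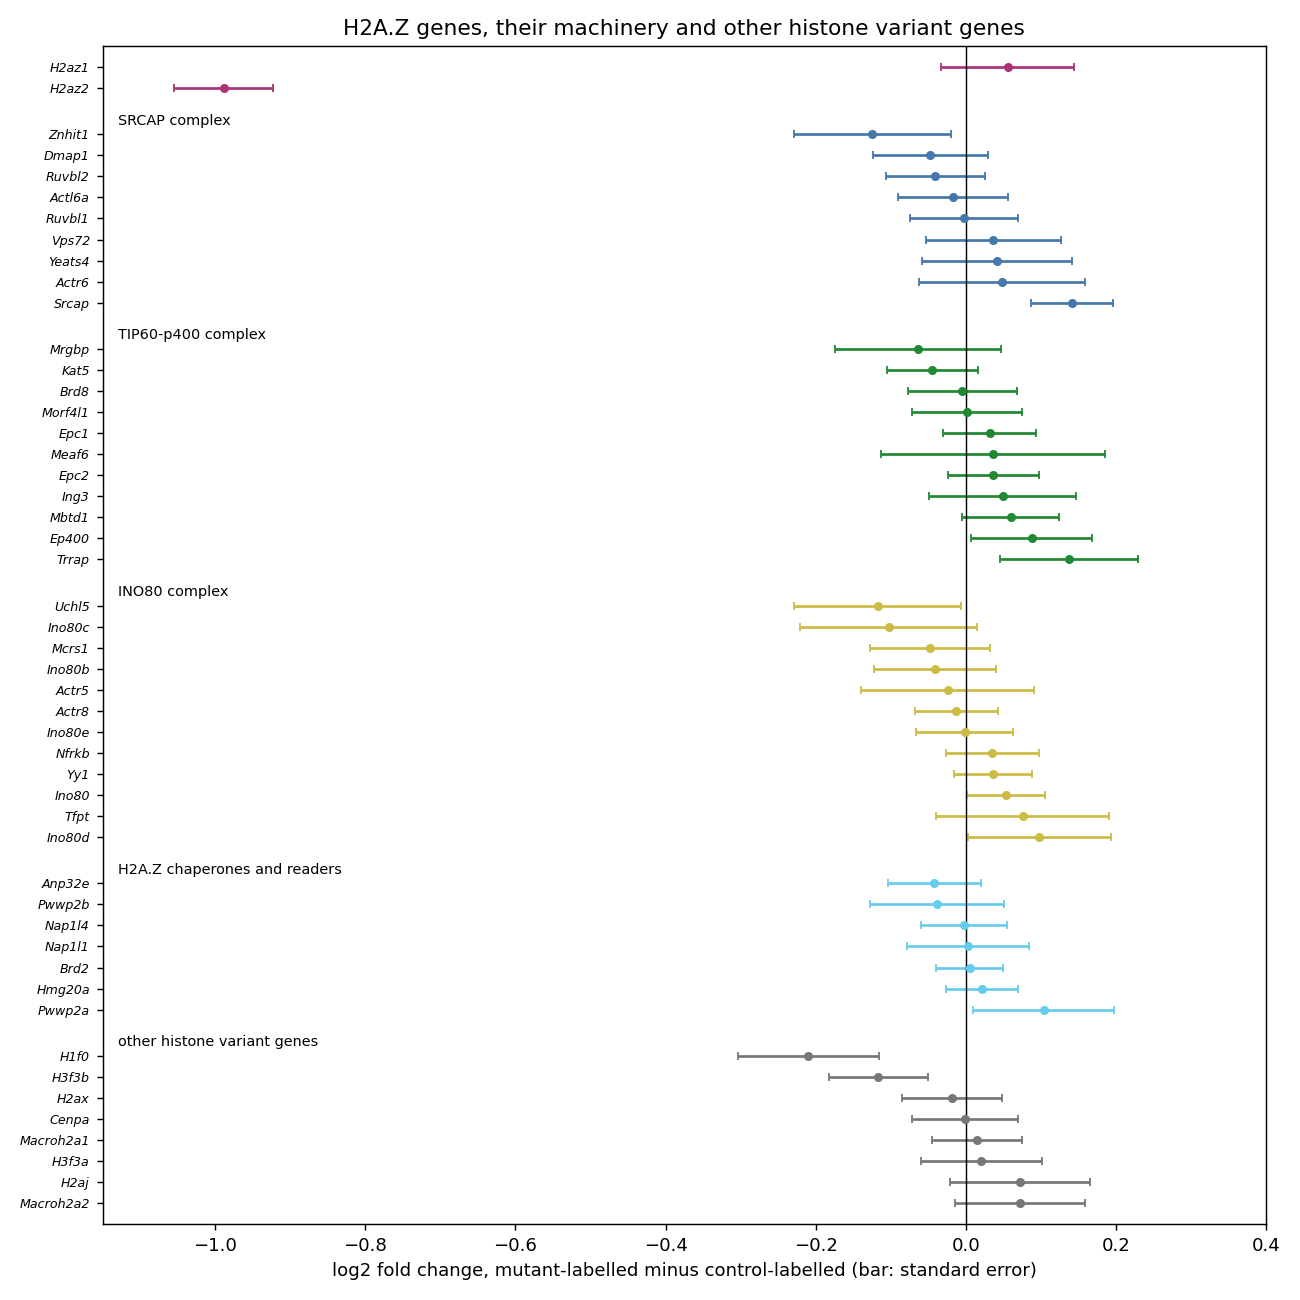
Log2 fold change (mutant-labelled minus control-labelled) with its standard error for both H2A.Z genes, the genes of the machinery lists and other histone variant genes, each gene drawn once, in the first list that holds it. *H2az2* lies at −0.99, and all other genes drawn lie between −0.21 and 0.14.

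The genes on chromosome 11 around *H2az2* were counted to see whether the fall extended along the chromosome. Within 1 Mb of its lower coordinate 32 other genes were tested, of which none passed an adjusted p-value of 0.05 with edgeR, DESeq2 or limma voom, 4 were at an unadjusted p-value under 0.05 with edgeR (3 lower, 1 higher, against 3.82% and 3.68% of all genes), and the median log2 fold change was −0.019. The nearest on either side were *Ppia* and *Gm11970*. *Ppia* was at 194.5 ± 13.6 and 166 ± 9.87 CPM (log2 fold change −0.23 ± 0.063, SE of the fit, adjusted p = 0.411 with edgeR). *Gm11970*, a low gene, had group means under 1 CPM (log2 fold change −0.61 ± 0.32, SE of the fit, adjusted p = 0.687 with edgeR). Of the 50-base stretches of *Ppia*, 38.8% also occur in transcripts of 116 other annotated genes, so its counts are uncertain. *Purb* and *Nudcd3*, named after their values were seen, were the other genes lower at an unadjusted p-value under 0.05. *Purb* was at 107 ± 5.43 and 97.0 ± 7.19 CPM (log2 fold change −0.14 ± 0.061, SE of the fit, adjusted p = 0.653 with edgeR). *Nudcd3*, the one gene of the 32 whose groups did not overlap (1.48% of all genes), was at 39.9 to 40.8 CPM in the control-labelled and 33.1 to 39.6 CPM in the mutant-labelled group (log2 fold change −0.13 ± 0.056, SE of the fit, adjusted p = 0.653 with edgeR). The one higher was *Adcy1*, at 10.9 to 18.7 CPM in the control-labelled and 16.8 to 67.9 CPM in the mutant-labelled group (log2 fold change 0.88 ± 0.35, SE of the fit, adjusted p = 0.634 with edgeR).

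*E2f1* was read because of that second *Wnt1-Cre* line, and was picked after the data were seen. It was at 14.6 ± 0.494 and 13.8 ± 1.64 CPM (SD, n = 5 each), log2 fold change −0.08 ± 0.084 (SE of the fit, adjusted p = 0.872 with edgeR). What a transgene in *E2f1* does to its RNA was not tested, so these values do not tell which line was used.

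The profiles nearest to *H2az2* over the 10 libraries were sought among 14478 genes with a mean of at least 1 CPM, by the root mean square difference of log2 CPM after each gene was centred on its mean. Among the nearest were *Sfrp4* (0.252), *Tnfsf11* (0.276), *Shisal1* (0.279) and *Pcolce2* (0.279), all lower in the mutant-labelled libraries, with log2 fold changes from −0.74 to −0.57. The SD of *H2az2* itself was 0.529 on this scale. *Tnfsf11*, which encodes the osteoclast factor RANKL, was at 7.59 ± 0.906 and 5.10 ± 0.463 CPM (SD, n = 5 each). Since *H2az2* varies mainly between the groups, this search finds genes that are lower in the mutant-labelled libraries. None of the other members was near, and their distances ran from 0.449 for *Znhit1* to 0.581 for *Srcap*. The nearest to *H2az1* were *Atxn7l3b* (0.0553), *4933434E20Rik* (0.0587), *Pebp1* (0.0655), *Med17* (0.068) and *Cse1l* (0.0694), none of them on the machinery lists. Among the members *Ep400*, at 0.134, was closest to *H2az1*.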

How the data were processed

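RNA-seq libraries of 5 control-labelled and 5 mutant-labelled AF regions were compared. The authors made stranded libraries, sequenced single-end reads of 50 bases and gave GEO a table of genes by libraries, whose deposited values are estimated counts, unscaled, 67.2% of them whole numbers. The submitters' processing notes name mm10 and Partek. Aligner, counting tool and strand setting are not given in the sources used here. All 8 members had the start and end of GENCODE M21. All columns belonged to a mapped library.

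The design assumed counts. The deposited estimated counts were rounded to whole numbers and tested with edgeR 4.0.16 in R 4.3.3 (expression filter, TMM, quasi-likelihood test, no covariate, Benjamini-Hochberg adjustment over 16267 genes, threshold 0.05). CPM is edgeR's count scaled by the TMM library size, with a prior count of 0.5 before logarithms. Intervals of fold changes are 95% intervals of the fit. Exact permutation tests were two-sided over 252 groupings and cannot give a p-value under 0.00794. DESeq2 1.42.0 and limma 3.58.1 served as alternatives. The test was checked on simulated counts. The study describes controls and mutants as littermate pairs, but the labels do not tie a control to a mutant library or name litters, so the libraries were compared unpaired and p-values measure the spread between these 10 libraries. The 20 pairs of libraries of one group all differed by more than sampling noise, with a chi-square of at least 7.83 per degree of freedom. Low genes rest on few counts, with 277 as the lowest count of a member in one library.

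The members and lists were chosen with earlier results of these data known. Genes named are the members, genes of the machinery and histone variant lists without overlap, at an unadjusted p-value under 0.05 or at either end of their list, the 5 nearest profiles to each H2A.Z gene (1 of them is not reported here), and the tested genes nearest to *H2az2*, with *E2f1*, *Purb*, *Nudcd3* and *Adcy1* added after their values were seen. *Fgfr2* was named as the target, *Gm42715*, *Gm8203*, *Tmcc1* and *Plod3* for shared sequence. Lengths are those of the longest coding transcript in GENCODE M21. Protein sequences were not used here.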

Additional observations from a re-analysis of the deposited data

How the results depend on the processing

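Among the settings run, *H2az2* kept a log2 fold change between −1.02 and −0.98, and between −1.01 and −0.955 when libraries were left out one at a time. *H2az1* stayed between 0.018 and 0.0647, and between 0.0195 and 0.122 without single libraries, with adjusted p-values of 0.746 to 0.993. The difference in the *H2az2* share of counts was −12.9 to −11.6 percentage points without single libraries. Of the members tested, which leave out *H2az2*, none was called in any setting with an adjusted threshold. An unadjusted p-value under 0.05 with edgeR, chosen after the data were seen, called 1 of them. *Srcap* stayed between 0.0943 and 0.182, with adjusted p-values of 0.301 to 0.951. *Vps72* ran from −0.0311, without mutant-labelled replicate 4, to 0.0959 in the fits that left out 1 library, *Ep400* from 0.0618 to 0.161, *Znhit1* from −0.198 to −0.0642, *Anp32e* from −0.061 to −0.00385 and *Ino80* from 0.0397 to 0.0858.

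Of all genes, 3 were called in the reported fit. The count was 1 with library size alone, 1 with an *Xist* covariate, 97 with DESeq2's Wald test, 1219 at an unadjusted p-value under 0.05, and 1 to 6 without single libraries: 1 without control-labelled replicate 3, 4 or 5 or mutant-labelled replicate 1, 3, 4 or 5, and 6 without mutant-labelled replicate 2. The causes were not tested. The INO80 median was −0.0507 with library size alone, where the median of all genes was −0.0376 and that of TIP60-p400 −0.00299, and −0.0257 to 0.0214 without single libraries, above 0 without control-labelled replicate 2, 4 or 5 or mutant-labelled replicate 1 or 3. Replicate numbers showed no pairing of the libraries, with correlations of same-numbered deviations from −0.211 to 0.137. Such correlations do not show whether littermates are among the libraries. With the replicate block 1 gene was called, and none of the members tested. Depth limits *Znhit1* and *H2az2* most, at 277 to 807 counts per library.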

Other observations

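Ribosomal RNA (CT010467.1) took 20.8% of the counts in control-labelled replicate 5 and 18.6% in mutant-labelled replicate 4, against 25.9% to 33.5% in the other 8 libraries. In these 2 libraries *Vps72* was at 26.0 and 28.4 CPM and *Znhit1* at 18.4 and 17.9 CPM, the highest values of their groups for both genes. None of the other 6 members stood at the same end of both groups there, with *H2az1* at 60.5 and 64.4, *H2az2* at 27.7 and 14.9, *Srcap* at 123 and 124 and *Ep400* at 88.9 and 81.8 CPM. The part of ribosomal RNA content in these values was not tested.

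Neuronal markers varied between libraries, from 64.2 to 215 CPM for the sum of 6 genes in 9 libraries and at 543 CPM in mutant-labelled replicate 2. All 6 had a log2 fold change above 0 (median 0.80, 0.45 to 0.99), with none past an adjusted p-value of 0.05 in edgeR, DESeq2 or limma voom and 0, 1 and 0 at an unadjusted p-value under 0.05. Without that library the log2 fold change of *H2az2* was −0.99 and that of *H2az1* 0.023. Skeletal muscle markers summed to 664 CPM in mutant-labelled replicate 1 and 671 CPM in control-labelled replicate 2, against 15.3 to 127 CPM in the others. Summed markers of other cell types overlapped between the groups, at 989 to 2520 and 900 to 1600 CPM for erythroid cells, 414 to 527 and 435 to 527 CPM for endothelium, 332 to 462 and 325 to 394 CPM for macrophages and 5.48 to 12.5 and 4.58 to 10 CPM for epidermis, control-labelled first. Among the 5 macrophage genes 4 were below 0 and *Lyz2*, named after its values were seen, was at 29.5 to 54.9 and 58.3 to 80.7 CPM (log2 fold change 0.63, SE 0.16, adjusted p = 0.336 with edgeR), the one without overlap. DESeq2 called 1 gene of that list.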
